A study of Mus musculus with 82 samples.

Results

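The genes described here are 33 genes of the ATF4 response and of amino acid supply, chosen by name from a list and found as 1 row each among the 55401 genes of the count tables. They were grouped by role into 6 transcription factors, 8 stress effectors and feedback genes, 12 amino acid and one-carbon enzymes and 7 transporters. ATF4 is a transcription factor whose translation rises when eIF2 is phosphorylated by kinases that sense a shortage of amino acids, misfolded protein, viral RNA or a lack of heme. It binds together with C/EBP partners to composite elements near genes for amino acid transporters, for enzymes that make serine, glycine, asparagine, proline and cysteine, and for factors that restrain or end the response. Growth signals can also raise these genes through mTORC1, and proliferating smooth muscle cells use the serine and one-carbon pathway to make nucleotides. RNA levels do not report the translation of Atf4 itself.

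The data came from primary smooth muscle cells of the aortas of C57BL/6 mice (aVSMC), passaged in medium with serum, insulin and EGF and then kept for 24 h without any supplement. The cells were incubated in the same unsupplemented medium with EGF (10 µg/L, which activates EGFR), with AngII (10 nM, which activates AT1R), with U46619 (1 µM, a thromboxane A2 analog that activates the receptor TP) or with combinations, and the controls received none of them. After 24 h each of 6 mice gave 7 cultures, which were a control, the 3 agents singly (EGF, AngII or U46619), U46619 or AngII together with EGF, and the combination of all 3, so that n = 6 in every group. The 48 h experiment had 2 batches of 5 culture sets each, the EGF/U46619 batch with control, EGF, U46619 and EGF+U46619 and the EGF/AngII batch with control, EGF, AngII and EGF+AngII, so that control and EGF had n = 10 and the other groups n = 5. A culture set holds the cultures that share a batch and a replicate number. The labels give the 10 sets only 5 mouse numbers, whereas by the methods no 2 replicates shared a mouse, and the sets were treated as separate here.

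Levels are given as FPM, which are counts divided by the library size after TMM scaling, as CPM values are, and total counts ranged from 16483529 to 20818809 after 24 h and from 19936925 to 33916114 after 48 h. The smooth muscle markers with counts (4 of 6, with Tagln and Cnn1 listed at 0) summed to 1508 to 6360 FPM in the controls at 24 h. Those of adventitial fibroblasts (5 of 5) summed to 376 to 3053 FPM, of endothelium (4 of 5, with Cdh5 listed at 0) to 4.37 to 1530 FPM and of macrophages and leukocytes (4 of 4) to 16.7 to 110 FPM, so the control cultures were not free of markers of other cell types. A run of 312 neighbouring protein-coding genes at the distal end of chromosome 8, from 99024471 to 129234406 (GRCm38), was listed at 0 in every library, as were the mitochondrial genes and those on chromosomes X, Y and 9. Slc7a5, which encodes the catalytic chain of the large neutral amino acid transporter LAT1, lies in that run (chr8:121881150-121907694, minus strand) and therefore has no value here. The other 32 genes had counts and passed the filter on low counts at both times, and every count of genes below is out of these 32. The libraries standing apart were 2 in number. The EGF+AngII+U46619 library of mouse 3 at 24 h had a TMM factor of 0.646, and the 48 h control library of set B2-4 deviated from its group unlike the rest of its set (correlations of -0.329 to -0.32) and like the libraries of set B2-2 (median correlation 0.898).

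The promoters that carry the letters of an ATF4-C/EBP composite element are shown because they set apart members with a textbook ATF4 element close to the start. Promoter windows of 250 bases before to 50 bases after the start (RefSeq, GRCm38.p6) were given for 29 of the 33 genes, not for Cth, Eif4ebp1, Slc7a5 and Slc1a5. Both strands were searched for TGATGNAA (TTNCATCA on the other strand), a match to either being counted once. It was found in 9 of the 32 windows of these 29 genes (28.1%), against 3.97% of all 32851 windows. The genes were listed in part as ATF4 targets, so this difference is no test and nothing is read from it. The sequences below read 5′ to 3′ along the gene with the match in capitals. The matches start at positions -110, 15, -193, -110, -23, -103, -102, -66, -47 and -4 from the transcription start in the order printed, where -1 is the last base before the start.
Atf3: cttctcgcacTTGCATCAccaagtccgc
Trib3: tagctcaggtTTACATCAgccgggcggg
Chac1: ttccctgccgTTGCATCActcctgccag
Nupr1: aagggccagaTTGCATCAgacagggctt
Asns: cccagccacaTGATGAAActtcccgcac
Pycr1: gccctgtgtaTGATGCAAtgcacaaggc
Got1: attgcattggTTGCATCAtacaagcctc
Slc7a11, first match: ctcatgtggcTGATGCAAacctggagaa
Slc7a11, second match: cctggagaatTTGCATCAtcatgcagcc
Slc1a4: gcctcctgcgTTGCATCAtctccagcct

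The windows lie at chr1:191183426-191183453 (Atf3), chr2:152344029-152344056 (Trib3), chr2:119351039-119351066 (Chac1), chr7:126625563-126625590 (Nupr1), chr6:7693215-7693242 (Asns), chr11:120643834-120643861 (Pycr1), chr19:43524690-43524717 (Got1), chr3:50443662-50443689 and chr3:50443643-50443670 (Slc7a11) and chr11:20332700-20332727 (Slc1a4). Chac1 is on the plus strand and the others on the minus strand. Of the 9 genes with a match, 7 passed the test as higher with U46619 at 24 h and their median log2-fold change was 1.04 (range 0.20 to 1.77). Of the 20 genes with a window and no match, 13 passed, 12 of them as higher, and the median was 0.48 (range -1.04 to 2.04). Of all 14528 genes tested, 13.7% were called higher and 14.2% lower. The difference between genes with and without a match was not tested. The largest increases were thus found on both sides, with Slc7a11 among the genes with a match and Mthfd1l among those without one. Trib3 and Nupr1, which hold a match, did not pass the test with U46619 (log2-fold change 0.22 ± 0.24 and 0.20 ± 0.23, SE). A match describes letters in this window and says nothing about binding in these cells.

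In control cells the members spanned a wide range of levels per length (FPM per kilobase of exon, medians of the 6 mice at 24 h). Atf5, a transcription factor downstream of ATF4, was highest at 366 (range 220 to 916), followed by Atf4 at 137 (108 to 180) and by Eif4ebp1, which encodes the inhibitor of cap-dependent translation 4E-BP1, at 89.7 (58.2 to 101). Among the enzymes the first of serine synthesis, Phgdh, was at 77.4 (43.4 to 168.9), Asns (asparagine synthetase) at 41.5 (35.9 to 48.5) and Mthfd1l, the last mitochondrial step that releases formate, at 4.65 (3.05 to 6.26). At the low end were Slc7a11, the cystine carrier xCT, at 0.178 (0.0645 to 0.98) and Cbs, the first enzyme of transsulfuration, at 0.289 (0.21 to 0.789). Mice differed unequally from gene to gene. Control cultures of the highest and the lowest mouse differed 1.35-fold for Asns and 1.67-fold for Atf4, but 30.7-fold for Cth, 15.2-fold for Slc7a11 and 11.2-fold for Atf3. The plot of levels per length shows these spreads beside the values with U46619.

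**Figure D1:**
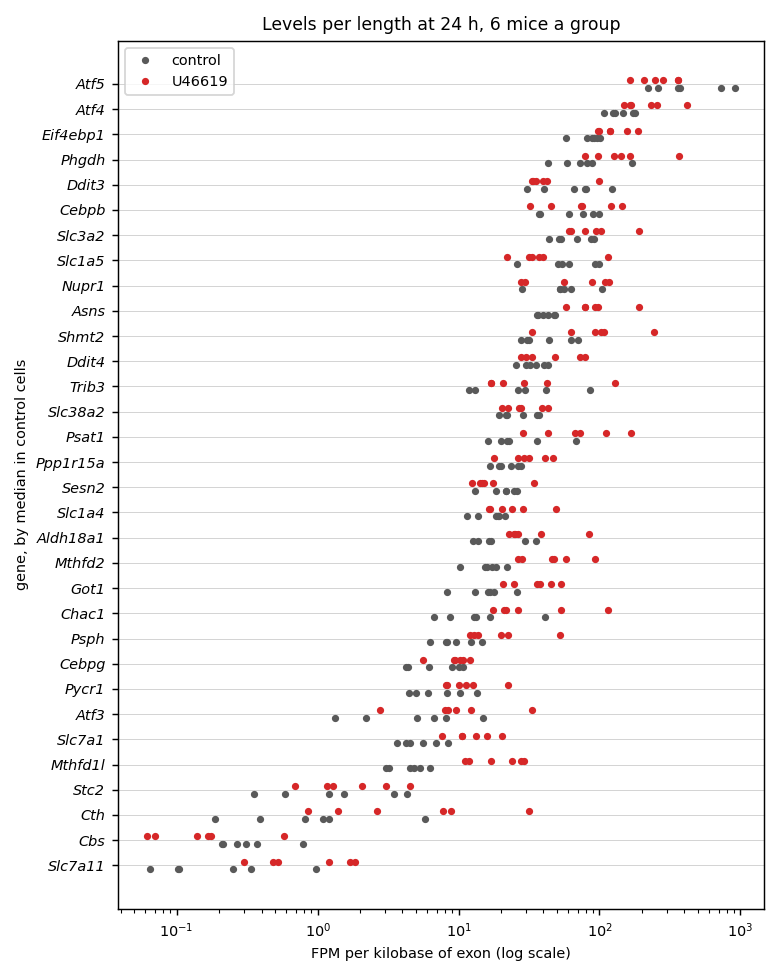
Levels of the 32 measured genes at 24 h in FPM per kilobase of exon (log axis), 1 point per mouse, with control in grey and U46619 in red and the genes ordered by their median in control cells. Mthfd1l, Mthfd2 and Asns have red points wholly to the right of the grey ones, and Atf5 and Slc1a5 are shifted to the left.

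To see how TP activation alone bears on these genes, U46619 was compared with control at 24 h within the 6 mice. A gene was called higher or lower when both edgeR and DESeq2 gave an adjusted p under 0.05 and its mean reached 5 FPM in 1 of the groups compared. Of the 32 genes, 21 were higher and 2 lower, where 13.7% of all 14528 genes tested were called higher and 14.2% lower. The median log2-fold change of the 32 genes was 0.61, against -0.06 over all genes tested. The enzymes made up most of the increase, with 11 of 12 called higher and a median of 1.13. Of the transporters measured, 4 of 6 were called higher and 1 lower, of the transcription factors 3 of 6 higher and 1 lower, and of the stress effectors and feedback genes 3 of 8 higher. In the 6 mice, 21 to 29 of the 32 genes were higher than in the mouse's own control, with medians of 0.28 to 1.21, whereas the medians of all genes lay between -0.07 and -0.01. Mouse 1 had the largest median, and without it 18 of the 32 genes were called. The smooth muscle markers summed to 4893 to 16860 FPM with U46619 (2 of 4 tested called higher, Acta2 by 2.05 ± 0.39 and Myl9 by 0.87 ± 0.28 on the log2 scale), the adventitial markers to 159.01 to 1863 FPM (4 of 5 called lower), the endothelial markers to 2.59 to 1326 FPM (none of 4 called) and the macrophage and leukocyte markers to 9.79 to 52.8 FPM (1 of 2 tested called lower). The part of these other cell types in the changes below was not tested, and in bulk RNA fewer cells of a type cannot be told apart from less RNA per cell. The map of log2-fold changes gives all comparisons with control.

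**Figure D2:**
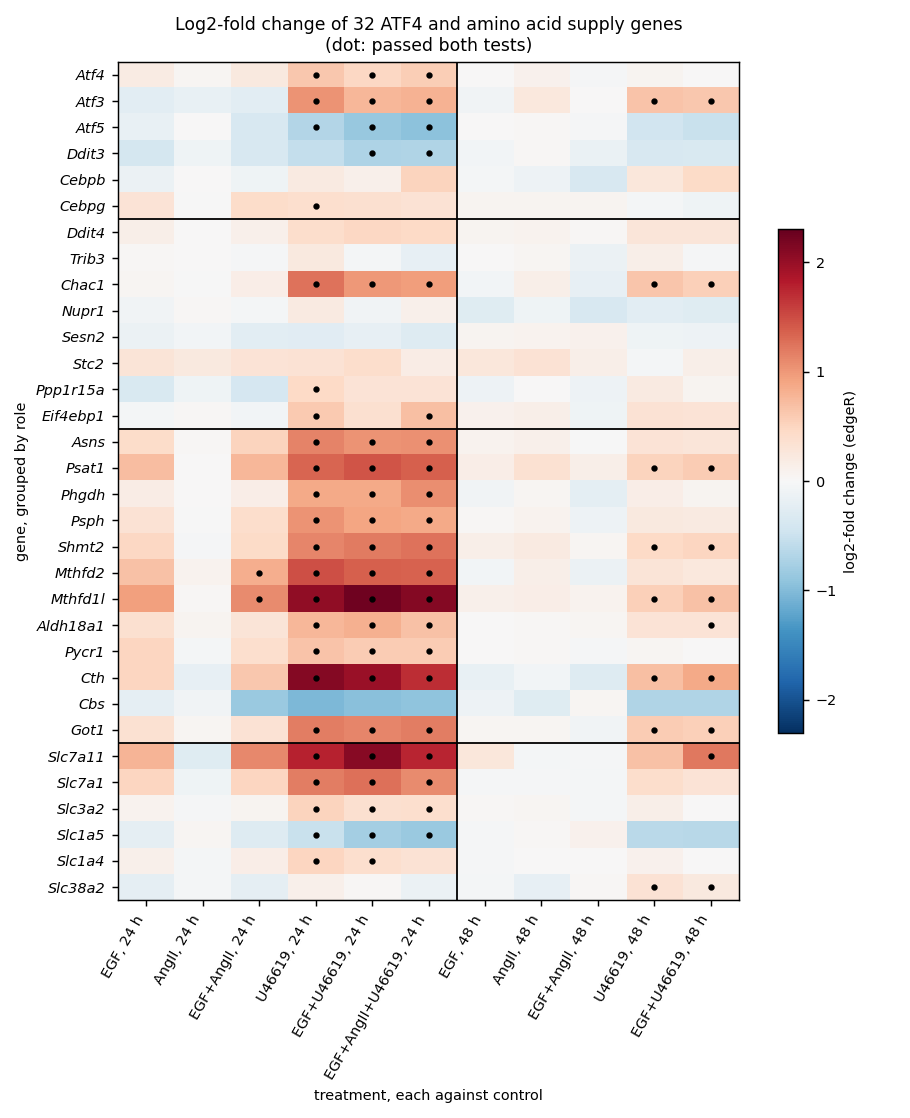
Log2-fold change against control (edgeR, colour scale from blue for lower to red for higher) of the 32 measured genes in rows, with the transcription factors, stress effectors, enzymes and transporters separated by lines, and the treatments at 24 and 48 h in columns. Dots mark genes that passed both tests, which are 23 for U46619 and 21 for EGF+U46619 at 24 h, and 8 and 10 at 48 h.

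Of the mitochondrial folate enzymes, Mthfd1l and Mthfd2 were separated from control at 24 h, and Shmt2 overlapped it. Mthfd1l (chr10:3973118-4167081, plus strand) was at 13.5, 20.6 and 27.8 FPM in the lowest, median and highest control culture and at 49, 91 and 128 FPM with U46619. The groups did not overlap, and the log2-fold change was 2.04 ± 0.27 (SE, adjusted p = 4.56e-06). Mthfd2 (chr6:83305691-83325908, minus strand), the methylene-tetrahydrofolate dehydrogenase upstream of it, was at 35.9, 57.8 and 77.4 FPM in control and at 92.2, 163.35 and 325 FPM with U46619. Every treated culture was again above the highest control culture, and the log2-fold change was 1.48 ± 0.15 (adjusted p = 1.46e-07). Shmt2 (chr10:127517123-127522444, minus strand), which feeds serine carbon into this pathway, was at 86, 116 and 218 FPM in control and 103, 304 and 762 FPM with U46619. The groups overlapped, since mice 4 and 6 gave 194 and 103 FPM with U46619, but all 6 mice were above their own control (1.12 ± 0.19, adjusted p = 4.96e-05). Groups that did not overlap in the higher direction were found for 3 of the 32 genes with U46619, the third being Asns (2.01% of all genes tested), and for 4 with EGF+U46619 (2.25%), and none of the 32 was wholly lower (1.09% and 1.54% of all genes).

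The enzymes of serine synthesis rose together. Psat1 (chr19:15904678-15947337, minus strand), the aminotransferase of the second step, was at 69, 95.3 and 288 FPM in control and 122, 298 and 717 FPM with U46619 (1.33 ± 0.23, adjusted p = 8e-05). The highest control was that of mouse 3, and in each of the 6 mice U46619 was above control, by 0.34 to 2.22 on the log2 scale. Phgdh, the entry enzyme, was at 108, 193 and 420 FPM in control and 198, 335 and 909 FPM with U46619 (0.88 ± 0.21, adjusted p = 0.00148). Psph, the phosphatase that releases serine, was at 27.3, 38.7 and 63.5 FPM in control and 52.3, 72.8 and 225 FPM with U46619 (1.04 ± 0.17, adjusted p = 5.18e-05). For both genes mouse 1 was highest in either group, and all 6 mice were above their control.

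Among the other amino acid enzymes, Asns (chr6:7675169-7693254, minus strand) was at 98.3, 114 and 133 FPM in control and at 157.1, 234 and 518 FPM with U46619, without overlap (1.14 ± 0.16, adjusted p = 1.19e-05). Got1, the cytosolic aspartate aminotransferase, was at 20.9, 41.7 and 66.1 FPM in control and 52.1, 93.7 and 136 FPM with U46619 (1.18 ± 0.17, adjusted p = 1.21e-05). The 2 enzymes of proline synthesis rose less, Aldh18a1 from 51.8, 68.4 and 145 FPM to 92.6, 105 and 345 FPM (0.76 ± 0.15, adjusted p = 0.000322) and Pycr1 from 17.5, 28.2 and 53 FPM to 32.2, 41.8 and 87.9 FPM (0.66 ± 0.19, adjusted p = 0.00902). The transsulfuration pair went in opposite directions. Cth, which splits cystathionine to cysteine, was at 0.525, 2.66 and 16.1 FPM in control and at 2.4, 14.4 and 88.3 FPM with U46619 (2.12 ± 0.46, adjusted p = 0.000735), higher in all 6 mice by 0.59 to 4.53 on the log2 scale, with the smallest rise in mouse 6, whose control was already at 16.1 FPM. Cbs, the step before it, had 1.57 to 5.9 FPM in control and 0.464 to 4.35 FPM with U46619, a difference of -1.04 ± 0.31 that was negative in all 6 mice (adjusted p = 0.00863), but its group means stayed under 5 FPM and it was therefore not called.

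The transporters divided in the same way. Slc7a11 (chr3:49892526-50443614, minus strand), which imports cystine in exchange for glutamate and whose promoter holds a pair of matches above, was at 0.898, 2.48 and 13.6 FPM in control and at 4.17, 12 and 25.6 FPM with U46619 (1.77 ± 0.37, adjusted p = 0.000429). The controls of mice 5 and 6, at 4.66 and 13.6 FPM, reached into the treated range, and in mouse 1 the level went from 0.898 to 23.4 FPM. Slc7a1, the carrier of arginine and lysine, was at 42.4, 58.3 and 96.5 FPM in control and 88.7, 137 and 236 FPM with U46619 (1.18 ± 0.22, adjusted p = 0.000187). Slc3a2, the heavy chain shared by xCT and LAT1, went from 153.97, 216 and 321 FPM to 215, 304 and 668 FPM (0.51 ± 0.14, adjusted p = 0.00542), and Slc1a4, a carrier of alanine, serine and cysteine, went from 45.3, 73.6 and 84.1 FPM to 64.3, 86.5 and 192 FPM (0.50 ± 0.16, adjusted p = 0.0129). Neither passed without mouse 1, and Slc1a4 also not without mouse 5. Slc1a5, the glutamine carrier ASCT2, fell, from 109, 239 and 412 FPM in control to 92.1, 147.5 and 476 FPM with U46619 (-0.52 ± 0.18, adjusted p = 0.0267). It was lower in 5 of 6 mice and higher in mouse 1, which had 476 FPM, and the call was lost without mouse 2, 5 or 6. Slc38a2, the carrier SNAT2 that is known to rise when amino acids are lacking, was at 172.1, 225 and 330 FPM in control and 179.1, 240 and 380 FPM with U46619 (0.11 ± 0.14) and did not pass the test.

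Of the transcription factors, Atf4 (chr15:80255184-80257541, plus strand) was at 255, 323 and 424 FPM in control and 352, 469 and 978 FPM with U46619. The groups overlapped, all 6 mice were above their control, and the log2-fold change was 0.62 ± 0.13 (adjusted p = 0.000534). Atf3, a stress-induced repressor and activator with a match in its promoter, was at 2.87, 12.7 and 32.3 FPM in control and 5.95, 19.3 and 71 FPM with U46619 (1.04 ± 0.29, adjusted p = 0.00616), with mouse 4 highest in either group. Atf5 (chr7:44812256-44816658, minus strand) moved the other way, from 439, 728 and 1825 FPM in control to 328, 530 and 720 FPM with U46619 (-0.68 ± 0.25, adjusted p = 0.0335). Mice 1 and 2, with 1461 and 1825 FPM in control, fell to 720 and 497 FPM, and without mouse 1, 2, 3 or 6 Atf5 no longer passed the test. Cebpg, a C/EBP partner of ATF4, went from 23.6, 42.3 and 60.3 FPM to 31.6, 55.5 and 67.7 FPM (0.39 ± 0.16, adjusted p = 0.0483), a call that was lost without any 1 of mice 1 to 5. Cebpb, another C/EBP factor, had medians of 103 FPM in control and 112 FPM with U46619 (log2-fold change 0.20 ± 0.22). Ddit3, which encodes the stress factor CHOP, had medians of 124 and 64.3 FPM (-0.54 ± 0.25, adjusted p = 0.0974), and neither gene was called.

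The stress effectors gave a mixed picture. Chac1 (chr2:119351229-119354381, plus strand), which degrades glutathione, was at 10.9, 21.4 and 67.1 FPM in control and 28.9, 39.3 and 188.01 FPM with U46619 (1.25 ± 0.26, adjusted p = 0.000438), and all 6 mice were above their control. Eif4ebp1 was at 128, 197 and 221 FPM in control and 214, 261 and 411 FPM with U46619 (0.60 ± 0.19, adjusted p = 0.0131), and Ppp1r15a, which encodes GADD34, the subunit that directs eIF2 dephosphorylation, was at 49, 64.3 and 81.8 FPM and 52.8, 89.2 and 137 FPM (0.46 ± 0.17, adjusted p = 0.0336). Both calls were lost without mouse 1 or 5, and that of Ppp1r15a also without mouse 2 or 4. The other 5 genes did not pass the test. Their log2-fold changes were 0.40 ± 0.23 for Ddit4 (REDD1, an mTORC1 inhibitor), 0.34 ± 0.23 for Stc2 (stanniocalcin 2), 0.22 ± 0.24 for Trib3 (a pseudokinase that binds ATF4), 0.20 ± 0.23 for Nupr1 (a stress-induced chromatin protein) and -0.26 ± 0.15 for Sesn2 (a leucine sensor upstream of mTORC1). Their median levels in control were 59.1 FPM for Ddit4, 7.12 FPM for Stc2, 59.7 FPM for Trib3, 137 FPM for Nupr1 and 75.3 FPM for Sesn2.

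EGF+U46619 gave a like set of calls at 24 h. Of the 32 genes, 18 were higher and 3 lower against control (17.1% and 16.3% of all genes tested), with a median of 0.47 against -0.05 over all genes. These 21 genes share 20 with the 23 called for U46619 alone, both comparisons using the same controls. Ddit3 was added as lower (-0.71 ± 0.26, adjusted p = 0.0248), and Cebpg, Eif4ebp1 and Ppp1r15a did not pass. The call of Ddit3 was lost without mouse 1 or 2, that of Atf5 without mouse 1, and that of Atf3 without mouse 2, 4 or 5. Slc3a2 was lost without mouse 1, 2, 4, 5 or 6, Slc1a4 without mouse 1, 4, 5 or 6. Pycr1 was lost without mouse 5 or 6. With only the groups compared 15 of the 21 calls remained, and Atf4, Atf5, Chac1, Ddit3, Slc1a4 and Slc3a2 were lost. Of the markers tested, 5 of 5 adventitial and 1 of 2 macrophage and leukocyte genes were called lower here and 1 of 4 smooth muscle genes higher. Mthfd1l reached 50.7, 116 and 141 FPM (2.23 ± 0.27), Slc7a11 6.49, 16 and 30 FPM (2.10 ± 0.37), Cth 1.76, 13.9 and 80.8 FPM (1.99 ± 0.46) and Chac1 27.3, 42.6 and 124 FPM (0.99 ± 0.26). Atf4 was at 327, 447 and 864 FPM (0.47 ± 0.13, adjusted p = 0.00446). The genes called lower with EGF+U46619 included Atf5 at 283, 455 and 643 FPM (-0.87 ± 0.25, adjusted p = 0.00626) and Slc1a5 at 94.3, 125 and 357 FPM (-0.78 ± 0.18, adjusted p = 0.0011), and each of these was below control in all 6 mice. EGF+AngII+U46619 gave 18 higher and 3 lower genes (18.2% and 16.3% of all genes), with a median of 0.57 against -0.04. Without mouse 3, 22 genes were called.

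Whether EGF changed the response to U46619 was tested directly. At 24 h none of the 32 genes was called between EGF+U46619 and U46619 (0% of all genes tested), and DESeq2 alone called none. None of the 32 had an unadjusted edgeR p under 0.05, against 387 of all 14528 genes tested. The log2 differences ran from -0.28 for Nupr1 to 0.33 for Slc7a11. The widest interval towards a rise was that of Slc7a11 (95% interval -0.34 to 1.00), and that of Mthfd1l was -0.30 to 0.70, so a log2 difference of 1.00 lies at the edge of the interval for Slc7a11. The interaction of EGF and U46619, which asks whether the combined change differs from the sum of the single ones on the log2 scale, was called for none of the 32 genes at 24 h (0% of all genes tested, and none by DESeq2 alone). It had an unadjusted edgeR p under 0.05 for 4 of them, which were Mthfd2 (-0.79 ± 0.21), Mthfd1l (-0.76 ± 0.36), Pycr1 (-0.58 ± 0.27) and Asns (-0.53 ± 0.23). Over all 14528 genes tested this held for 450. At 48 h the same 2 tests called none of the 32 genes (0% and 0% of all genes tested, none by DESeq2 alone, none with an unadjusted p under 0.05), and Slc7a11 again had the largest difference between EGF+U46619 and U46619 (0.54, 95% interval -0.02 to 1.10, higher in 5 of 5 sets).

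EGF alone at 24 h gave no call among the 32 genes (0.0275% of all genes tested, 4 genes). With edgeR 12 of the 32 had an unadjusted p under 0.05, as had 2579 of all 14528 genes tested. DESeq2 alone called 2 of the 32 genes, and as its share over all genes is not given, nothing is read from that count. The 2 genes were Mthfd2, at 60.2, 87.5 and 172.6 FPM with EGF (0.68 ± 0.15, adjusted p = 0.071 in edgeR and 0.00926 in DESeq2, higher in 6 of 6 mice), and Mthfd1l, at 25.4, 40.8 and 70 FPM (0.95 ± 0.26, adjusted p = 0.088 and 0.0242, higher in 5 of 6 mice). The differences from control were unequal between mice. Each mouse gave 1 culture per treatment, so unequal mice cannot be told apart from unequal single cultures. The median of the 12 enzymes over their own control was 0.90 in mouse 1, 0.68 in mouse 2 and 0.70 in mouse 5, but 0.21 in mouse 3, 0.13 in mouse 6 and -0.15 in mouse 4, while the median of all genes stayed between -0.04 and 0.00. Psat1 illustrates this, going from 153.6 to 406 FPM in mouse 1 and from 69 to 153.3 FPM in mouse 5, but from 85 to 92.7 FPM in mouse 4. Leaving out mouse 4 gave 1 call and leaving out mouse 6 gave 3. With U46619 the culture of mouse 4 was above its control like those of the other mice, with an enzyme median of 1.04. The plot of enzyme medians by mouse shows this contrast.

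**Figure D3:**
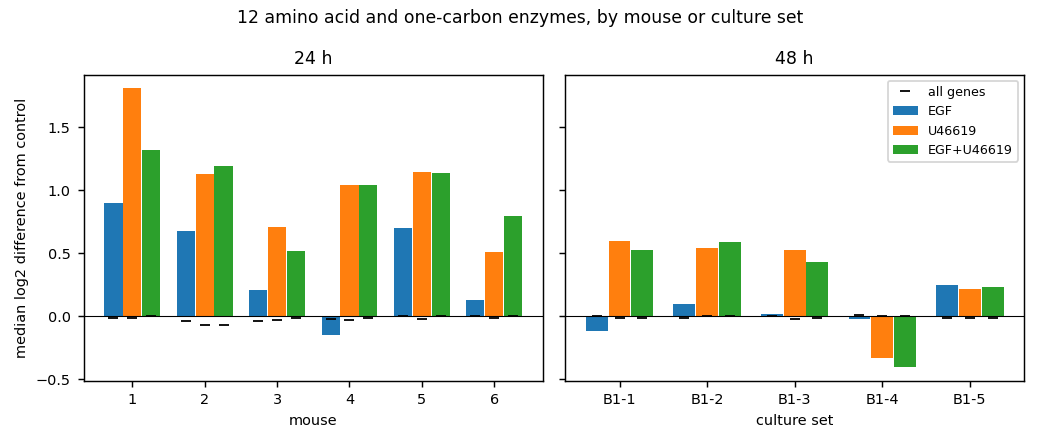
Median log2 difference from the same mouse's or culture set's control over the 12 amino acid and one-carbon enzymes, with bars for EGF (blue), U46619 (orange) and EGF+U46619 (green) and short black lines for the median of all genes tested. At 24 h U46619 is above 0 in all 6 mice (0.51 to 1.81) while EGF lies between -0.15 and 0.90, and at 48 h set B1-4 lies below 0 with U46619 (-0.33).

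With AngII alone at 24 h none of the 32 genes passed the test in either tool (0% of all genes tested), and the log2-fold changes lay between -0.28 and 0.22. An unadjusted edgeR p under 0.05 was found for none of them, against 68 of all 14528 genes tested. With EGF+AngII, 2 genes were called higher and none lower (1.54% and 1.59% of all genes). They were the same mitochondrial folate enzymes, Mthfd2 at 66.4, 98.3 and 202 FPM (0.84 ± 0.15, adjusted p = 0.00846) and Mthfd1l at 27.1, 43.6 and 79.7 FPM (1.08 ± 0.26, adjusted p = 0.0401), both above control in all 6 mice. These calls rest on few libraries. Leaving out mouse 1, 2, 3 or 5 left none of the 32 genes called, leaving out mouse 4 or 6 gave 4 and 6, and leaving out only the EGF+AngII+U46619 library of mouse 3, which changes the estimate of the spread, gave 5.

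U46619 was next set against EGF directly, since both were measured in the same mice. At 24 h 15 of the 32 genes were higher with U46619 than with EGF and none was lower (6.19% and 5.13% of all genes tested). The largest differences were those of Cth (1.62 ± 0.44, adjusted p = 0.013), Atf3 (1.28 ± 0.29, adjusted p = 0.00351), Chac1 (1.20 ± 0.26, adjusted p = 0.00215) and Mthfd1l (1.08 ± 0.26, adjusted p = 0.00502), each positive in all 6 mice. Ppp1r15a was at 34, 55.2 and 70 FPM with EGF, against 52.8, 89.2 and 137 FPM with U46619 (0.81 ± 0.17, adjusted p = 0.00197). Atf4 was also higher with U46619 than with EGF (0.43 ± 0.13, adjusted p = 0.0258). This call was lost without mouse 1, 4 or 5, with only the groups compared, with no filter on low counts and with no block. Of the markers tested, 3 of 5 adventitial and 1 of 2 macrophage and leukocyte genes were called lower with U46619 than with EGF and 2 of 4 smooth muscle genes higher, and for EGF+U46619 against EGF these numbers were 5, 1 and 2. Their part was not tested. Between EGF+U46619 and EGF, 15 genes were higher and 1 lower (7.03% and 6.26% of all genes), the lower one being Slc1a5 (-0.58 ± 0.18, adjusted p = 0.0283). Leaving out mouse 2, 4 or 5 reduced these 16 calls to 6, 7 and 8, and leaving out mouse 4 or 5 reduced the 15 calls between U46619 and EGF to 8 and 9.

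**Figure D4:**
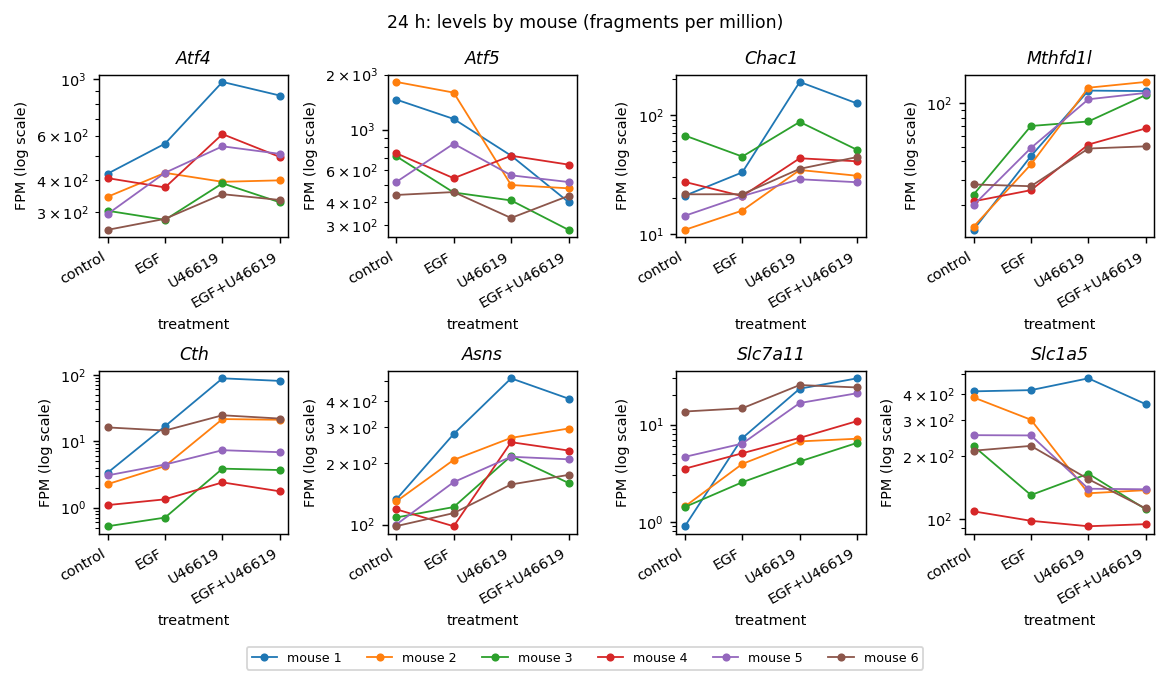
Levels at 24 h in FPM (log axis) of 8 genes in the cultures of 6 mice, 1 line per mouse, across control, EGF, U46619 and EGF+U46619. For Mthfd1l, Cth, Slc7a11 and Asns every line is higher with U46619 than in control, whereas Atf5 and Slc1a5 are lower in 5 of 6 mice.

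At 48 h the same comparisons gave fewer and smaller changes. With U46619, 8 of the 32 genes were higher than control and none lower (5.77% and 4.87% of all genes tested), with a median of 0.25 against -0.01 over all genes. With EGF+U46619, 10 were higher and none lower (7.62% and 7.32% of all genes), with a median of 0.22 against -0.01. These 10 contain all 8, namely Atf3, Chac1, Psat1, Shmt2, Mthfd1l, Cth, Got1 and Slc38a2, and add Aldh18a1 and Slc7a11. The same sign as at 24 h was found for 29 of the 32 genes with U46619, and 28 of the 32 had the larger absolute log2-fold change at 24 h (median absolute value 0.67 at 24 h and 0.31 at 48 h). For EGF+U46619 these numbers were 30 and 29 (0.77 and 0.30). The difference between the times was not tested, since the cultures came from other mice and were scaled separately. Slc38a2 was called only at 48 h, at 0.33 ± 0.08 with U46619 (adjusted p = 0.00786) and 0.23 ± 0.08 with EGF+U46619 (adjusted p = 0.0495). The call with EGF+U46619 was lost without any 1 of sets B1-1 to B1-5, B2-1 and B2-4, with only the groups compared, with the likelihood ratio test, with no filter on low counts and with at least 10 counts in every library. Both calls were lost with the mouse number as block or with no block. In sets B1-1 to B1-5 it was at 322, 217, 184.5, 185.9 and 327 FPM in control and at 341, 284, 263, 238 and 450 FPM with U46619, higher in every set. The marker sums at 48 h are given beside the controls of both batches, although U46619 was used in 1 batch, so their ranges are no comparison. The endothelial markers summed to 12.1 to 685 FPM with U46619 and 12.3 to 1584 FPM in all controls, the macrophage and leukocyte markers 28.3 to 55.2 and 14.4 to 610 FPM, the adventitial markers 175.3 to 1613 and 173.8 to 2679 FPM, and the smooth muscle markers 1366 to 6221 and 645 to 9075 FPM. Of the markers tested at 48 h, 2 of 5 adventitial genes were called lower with U46619 and 3 of 5 with EGF+U46619, 1 of 2 macrophage and leukocyte genes was called lower with each, and 4 of 4 smooth muscle genes were called lower with EGF+U46619. Their part was not tested.

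Mthfd1l, Got1 and Chac1 were higher with U46619 in every culture set at 48 h. In sets B1-1, B1-2, B1-3, B1-4 and B1-5, Mthfd1l was at 32.9, 46.5, 23.1, 42.4 and 28.2 FPM in control and at 50.6, 69.6, 52.2, 54.2 and 44.3 FPM with U46619 (0.55 ± 0.14, adjusted p = 0.00858). All 5 sets were higher, and only the highest control exceeded the lowest treated culture. Got1 was at 52.4, 67, 50.9, 77.8 and 51.9 FPM in control and at 100, 133, 84.2, 95 and 54.9 FPM with U46619 (0.58 ± 0.11, adjusted p = 0.000965), again higher in 5 of 5 sets. Chac1 was at 24.9, 30.2, 26.6, 36.6 and 50.2 FPM in control and at 60, 54.7, 45.8, 39.9 and 59.2 FPM with U46619 (0.64 ± 0.14, adjusted p = 0.00222), and its smallest rise was in set B1-4.

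Set B1-4 stood against the others for several members. The labels give it the same mouse number as set B1-1, and as B2-1, B2-2 and B2-5 of the EGF/AngII batch. Cth was at 24.6, 19.2, 4.4, 19.1 and 2.67 FPM in control and at 59.4, 45.3, 8.26, 13.3 and 5.71 FPM with U46619, in the same order of sets, so that 4 sets were higher and B1-4 was lower (0.69 ± 0.22, adjusted p = 0.0407). Shmt2 was at 126, 185.3, 123, 201 and 99.4 FPM in control and at 238, 321, 176.02, 176.08 and 134 FPM with U46619 (0.45 ± 0.13, adjusted p = 0.0192), with B1-4 again the set that fell. Asns, which was not called (0.31 ± 0.13, adjusted p = 0.131), was at 184.9, 215, 141, 237 and 118 FPM in control and at 261, 301, 180.8, 190 and 144 FPM with U46619. Atf4, at 420, 471, 403, 505 and 442 FPM in control and at 545, 588, 361, 363 and 412 FPM with U46619, did not differ beyond the spread between sets (0.06 ± 0.13, adjusted p = 0.819), with 2 sets higher and 3 lower. Over the 12 enzymes, the median difference was 0.60, 0.54, 0.53 and 0.22 in the other sets and -0.33 in B1-4. Without B1-4, 14 of the 32 genes were called with U46619, adding Asns, Mthfd2, Psph, Aldh18a1, Eif4ebp1 and Cbs, the last of which was lower. Without B1-1, B1-2 or B1-3 there were 4, 5 and 3. Atf3, Cth, Psat1 and Shmt2 were lost in each of these 3 cases, and also with the mouse number as block or with no block. Cth was lost as well without B1-5, B2-1, B2-5 or B2-6 and with only the groups compared. With EGF+U46619 there were 14 without B1-4 and 6 without each of B1-1, B1-2 and B1-3.

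Psat1 was at 122, 214, 120, 222 and 186.1 FPM in control and at 184.7, 383, 237, 227 and 248 FPM with U46619 (0.52 ± 0.14, adjusted p = 0.0133), higher in all 5 sets and least so in B1-4. Atf3 was at 10.8, 10.8, 14.2, 10 and 22.5 FPM in control and at 22.7, 18.1, 22.1, 13.7 and 22.5 FPM with U46619 (0.65 ± 0.19, adjusted p = 0.0222), with nearly equal values in B1-5. Slc7a11 was at 12.4, 7.65, 4.59, 8.84 and 3.09 FPM in control, at 13.9, 14, 10.5, 16 and 6.86 FPM with EGF, at 17.4, 19.9, 11.6, 14.1 and 6.79 FPM with U46619 and at 25.9, 23.9, 17.9, 22 and 10.6 FPM with EGF+U46619. It was higher than control in all 5 sets with each of these treatments (8 of 10 sets with EGF when both batches are counted), and EGF+U46619 passed the test (1.21 ± 0.27, adjusted p = 0.00247), a call that was lost with the mouse number as block or with no block. With U46619 it was also called with only the EGF/U46619 batch, with only the groups compared and without set B2-4 or its control, and with EGF with only the EGF/U46619 batch. Its difference between EGF+U46619 and U46619 was called with only the groups compared. Aldh18a1 was at 93.4, 106, 57.8, 94.5 and 81.7 FPM in control and at 128, 143, 96.1, 94.1 and 106 FPM with EGF+U46619 (0.32 ± 0.11, adjusted p = 0.0437), and B1-4 was the set that did not rise. This call was lost without B1-1, B1-2, B1-3, B1-5, B2-1 or B2-6.

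Slc1a5 and Cbs kept their opposite direction at 48 h. Slc1a5 was at 336, 275, 263, 239 and 295 FPM in control and at 225, 198, 151.9, 128 and 216 FPM with U46619. The groups did not overlap, yet the fit over all groups gave -0.62 ± 0.26 (adjusted p = 0.124), and without the control library of set B2-4, which had 47.1 FPM, Slc1a5 was called lower. Leaving out that library raised the calls from 8 to 14 with U46619, adding Aldh18a1, Atf5, Ddit3, Slc1a5, Slc7a1 and Slc7a11, and from 10 to 13 with EGF+U46619. Not all of the added genes rose. In the EGF/U46619 batch the mean of Atf5 was 731 FPM in control and 523 FPM with U46619, and that of Ddit3 was 179.1 and 132.1 FPM. Leaving out the whole set B2-4 gave 13 and 12, with Atf5 and Slc1a5 among them. Cbs was lower in 5 of 5 sets (-0.69 ± 0.20, adjusted p = 0.0219), at 2.28 to 2.76 FPM with U46619 and 3.31 to 7.04 FPM in the controls of its batch. Its group means stayed under the 5 FPM required for a call. It was called without any 1 of sets B1-2, B1-4, B1-5, B2-1, B2-5 and B2-6. The same held with only the groups compared and with at least 10 counts in every library. Groups of 5 that did not overlap were found for 1 gene higher and 2 genes lower with U46619 (1.53% and 1.67% of all genes tested) and for 2 higher and 2 lower with EGF+U46619 (1.8% and 1.99%). The higher ones were Slc7a1 in both (28 to 61.1 FPM in control, 61.8 to 95.2 FPM with U46619) and Mthfd1l with EGF+U46619, and the lower ones Cbs and Slc1a5.

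**Figure D5:**
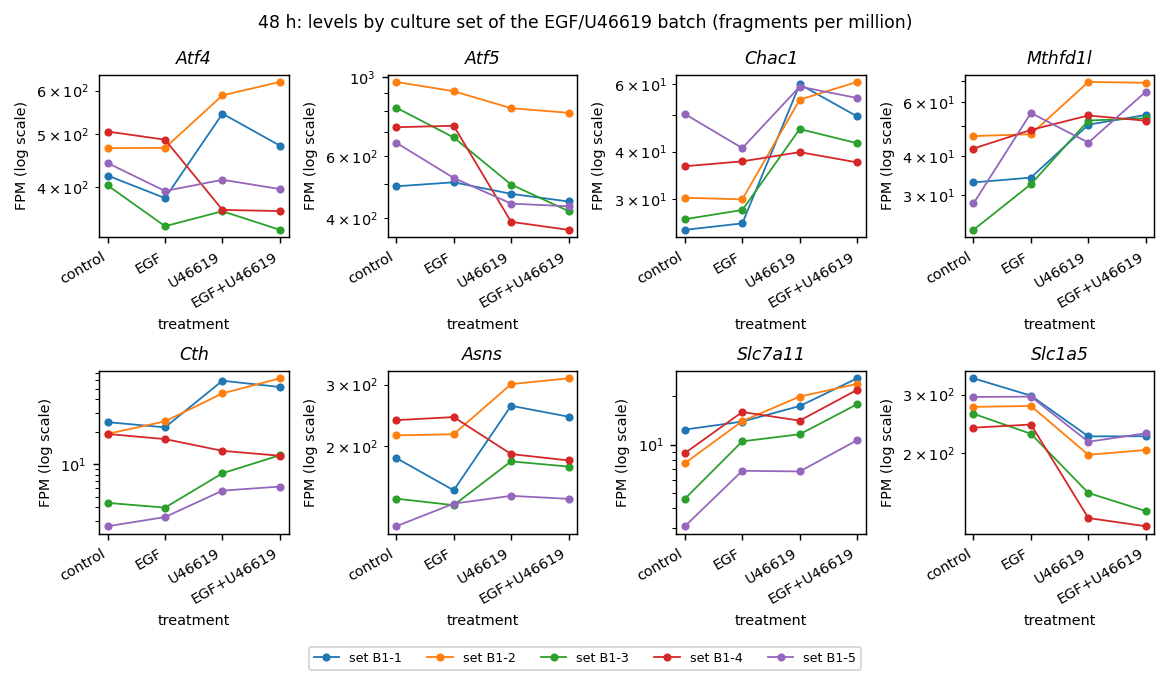
Levels at 48 h in FPM (log axis) of the same 8 genes in the 5 culture sets of the EGF/U46619 batch, 1 line per set, across control, EGF, U46619 and EGF+U46619. Mthfd1l and Chac1 are higher with U46619 in all 5 sets, Slc1a5 is lower in all 5, and Cth and Asns fall in set B1-4.

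EGF, AngII and EGF+AngII at 48 h gave no call among the 32 genes by edgeR and DESeq2 together or by DESeq2 alone (0% of all genes tested in each case). Unadjusted edgeR p-values under 0.05 were found for 1, 3 and none of them, and for 696, 530 and 481 of all 14528 genes tested. Log2-fold changes ranged from -0.28 to 0.26 with EGF, from -0.28 to 0.35 with AngII and from -0.37 to 0.14 with EGF+AngII. Compared directly, U46619 exceeded EGF for 7 genes with none lower (5.73% and 4.57% of all genes), and EGF+U46619 exceeded EGF for 9 with none lower (6.98% and 6.13%). Chac1 (0.70 ± 0.14, adjusted p = 0.00104) and Atf3 (0.74 ± 0.19, adjusted p = 0.0118) were among the 7, as was Ppp1r15a (0.31 ± 0.09, adjusted p = 0.027), which was at 78.1, 75.9, 62.8, 68.3 and 66.1 FPM with EGF and at 106, 116, 84.8, 70.9 and 80.2 FPM with U46619. Without B1-1, B1-2 or B1-3 the 7 calls became 3, 4 and 4, without B1-4 they became 11, and without B1-2 or B1-3 the 9 calls became 5. Of the adventitial markers 3 of 5 were called lower than with EGF in each comparison, and with EGF+U46619 2 of 4 smooth muscle genes were lower and 1 of 2 macrophage and leukocyte genes higher. Their part was not tested.

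Genes around the members were followed with 4 further lists. Their counts stand against 13.7% higher and 14.2% lower of all genes with U46619 and 17.1% and 16.3% with EGF+U46619 at 24 h, and against 5.77% and 4.87%, and 7.62% and 7.32%, at 48 h. Of the aminoacyl-tRNA synthetases, which load amino acids onto tRNA and include known ATF4 targets, 15 of the 17 tested were higher with U46619 at 24 h and none lower, with a median of 0.71. With EGF+U46619 15 of 17 were higher (median 0.80), led by Nars (1.21 ± 0.19, adjusted p = 1.05e-05), Iars (1.05 ± 0.19, adjusted p = 6.38e-05) and Rars (1.03 ± 0.19, adjusted p = 6.12e-05). At 48 h 6 and 8 of the 17 were higher with U46619 and EGF+U46619. Of other ATF4 targets, 3 of the 15 tested were higher and 1 lower with U46619 at 24 h (median 0.24), and 4 and 1 with EGF+U46619. The share called higher with U46619 was near that of all genes, and nothing is read from it. Those higher with EGF+U46619 included Bcat1, the cytosolic branched-chain aminotransferase (1.81 ± 0.24, adjusted p = 1.32e-06), Aldh1l2, the mitochondrial formyl-tetrahydrofolate dehydrogenase (1.01 ± 0.33, adjusted p = 0.0155), and Vegfa (0.91 ± 0.19, adjusted p = 0.000401). At 48 h these numbers were 3 and 0 with U46619 and 4 and 1 with EGF+U46619.

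Of the folate, glycine and glutamine enzymes, 4 of the 10 tested were higher and 2 lower with U46619 at 24 h (median 0.38), and 5 and 2 with EGF+U46619. Tyms, thymidylate synthase (1.40 ± 0.31, adjusted p = 0.0005), was among those higher with EGF+U46619, and Gldc, which breaks down glycine (-1.48 ± 0.38, adjusted p = 0.00212), was among those lower. At 48 h none of the 10 was called with either treatment by edgeR and DESeq2 together or by DESeq2 alone. An unadjusted edgeR p under 0.05 was found for none of them with U46619 and for 3 with EGF+U46619. Of all 14528 genes tested, 3942 and 4480 had such a p. Of the genes that set the phosphorylation of eIF2, 2 of the 7 tested were higher and none lower with U46619 at 24 h (median -0.01), and 3 were higher with EGF+U46619. These were Eif2s1, which encodes the phosphorylated subunit itself (1.13 ± 0.19, adjusted p = 2.77e-05), Ppp1r15b, a constitutive partner of its phosphatase (0.62 ± 0.12, adjusted p = 0.000201), and Eif2ak4, the kinase GCN2 that senses uncharged tRNA (0.52 ± 0.20, adjusted p = 0.0387). At 48 h 2 and 3 of the 7 were higher.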

How the data were processed

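RNA of 82 libraries (42 after 24 h, 40 after 48 h) was sequenced after polyA enrichment. The authors aligned reads to mm10 with HISAT2 2.1.0 and counted them per gene with featureCounts, reads with several alignments included, so near-identical gene copies share reads. The deposited values are raw counts. Positions are those of the GENCODE annotation of GRCm38.

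Genes kept by filterByExpr at 24 h (14653) and at 48 h (15796), 14528 at both, were tested with edgeR 4.0.16 (quasi-likelihood test, TMM) and DESeq2 1.42.0 (Wald test) in R 4.3.3, which were tested on simulated data. Each time was fitted with all its groups, with mouse (24 h) or culture set (48 h) and treatment as terms. A call needed a Benjamini-Hochberg adjusted p under 0.05 in both tools and a mean of 5 FPM in 1 group compared. Printed adjusted p are edgeR's unless DESeq2 is named, and SE and intervals (1.96 SE) follow from its statistic. Differences within a mouse or set used log2(FPM + 0.5).

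After 24 h, 126 of 126 pairs of cultures of a mouse deviated from their group means together (correlation over 0.1, median 0.8). After 48 h, 57 of 60 pairs of a set did (median 0.835), the exceptions being those of 1 control library. Sets with the same mouse number had a median of 0.0996.

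The members, lists and tests were chosen with earlier results of these data known. Values by culture are given for Atf4, for members called with U46619 or EGF+U46619 at both times, for the largest rise and fall of each role with EGF+U46619 at 24 h, and for members called with EGF, EGF+AngII or in a direct comparison, and list genes are at most 3 per list, by their change with EGF+U46619 at 24 h. Alternatives were other or no blocks, other filters, fewer groups, 1 batch alone, leaving out each replicate, a single tool, scaling by the size factors of DESeq2 and the likelihood ratio test of edgeR. The alternatives without a single library were chosen after seeing the data.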

Additional observations from a re-analysis of the deposited data

Results flagged for a closer look

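In total 273 groups of 4 to 10 cultures were taken over the members with values by culture. Of these, 45 held 1 culture far from the others (Dixon's ratio above its 95% value). For independent, normally distributed values about 1 in 20 would do so, but FPM need not be distributed in this way. In all 45 the culture apart was the highest of its group, and no excess is read from this count. The cultures of 1 mouse or set share their source, so these groups are not independent, and no explanation was tested.

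Most of them, 23, were the cultures of mouse 1 at 24 h, each the highest of its group. With U46619 this mouse gave 188.01 FPM for Chac1, 518 FPM for Asns, 909 FPM for Phgdh, 225 FPM for Psph, 762 FPM for Shmt2, 345 FPM for Aldh18a1, 88.3 FPM for Cth, 668 FPM for Slc3a2 and 476 FPM for Slc1a5. With EGF+U46619 it gave 864 FPM for Atf4, 124 FPM for Chac1, 645 FPM for Phgdh, 154.2 FPM for Psph, 286 FPM for Aldh18a1, 80.8 FPM for Cth and 357 FPM for Slc1a5. With EGF+AngII+U46619 it gave 243 FPM for Aldh18a1, 86.5 FPM for Cth and 320 FPM for Slc1a5. With EGF it gave 490 FPM for Phgdh, 107 FPM for Psph and 401 FPM for Slc3a2. Its control stood apart for Phgdh alone (420 FPM), among the 21 members with values by culture.

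In mouse 4 Atf3 stood apart at 71 FPM with U46619, 66.6 FPM with EGF+U46619 and 71.7 FPM with EGF+AngII+U46619. In mouse 2 Atf5 was at 2319 FPM with AngII and 1397 FPM with EGF+AngII. Mouse 3 gave 67.1 FPM for Chac1 in control, 48.7 FPM for Chac1 with AngII and 610 FPM for Eif4ebp1 with EGF+AngII+U46619. Mouse 6 gave 16.1 FPM for Cth in control, 12.4 FPM for Cth with AngII and 13.6 FPM for Slc7a11 in control.

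At 48 h, set B1-2 stood apart for Atf5 with U46619 (817 FPM) and EGF+U46619 (793 FPM), and set B1-1 for Slc7a1 with EGF+U46619 (100.2 FPM). Set B2-6 gave 286 FPM for Psat1 with AngII, 511 FPM for Slc38a2 in control, 492 FPM for Slc38a2 with EGF and 575 FPM for Slc38a2 with EGF+AngII. Set B2-5 gave 168.3 FPM for Shmt2 with EGF+AngII, 144 FPM for Mthfd2 with AngII and 139 FPM for Mthfd2 with EGF+AngII. Set B2-4 gave 39.8 FPM for Atf3 with EGF.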

How the results depend on the processing

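Without the replicate block, each count of members called that was above 0 was lower. At 24 h these counts fell to 6 with U46619 (from 23), 7 with EGF+U46619 (from 21), 9 with EGF+AngII+U46619 (from 21), 0 with EGF+AngII (from 2), 1 for EGF+U46619 against EGF (from 16) and 0 for U46619 against EGF (from 15). At 48 h they were 2 with U46619 (from 8), 2 with EGF+U46619 (from 10), 1 for EGF+U46619 against EGF (from 9) and 1 for U46619 against EGF (from 7). With the mouse number as block these 4 counts were 4, 6, 5 and 2, and with mouse number and batch 1, 2, 1 and 1.

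At 24 h EGF gave 2 with DESeq2 alone, 2 with the likelihood ratio test and 2 without a filter on low counts (from 0). EGF+AngII gave 5 with DESeq2 alone, 5 with the likelihood ratio test, 4 with at least 10 counts in every library and 0 with only the groups compared, and EGF+AngII+U46619 gave 8 with only the groups compared. At 48 h, U46619 gave 14 with only the EGF/U46619 batch, 13 with only the groups compared and 14 without the control of set B2-4. EGF gave 1 with only the EGF/U46619 batch, and EGF+U46619 against U46619 gave 1 with only the groups compared (both from 0, Slc7a11 in each case). Shares over all genes are not given for the counts under these alternatives.

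Leaving out replicates or single libraries gave, at 24 h, 18 to 23 for U46619, 17 to 22 for EGF+U46619, 18 to 22 for EGF+AngII+U46619, 0 to 3 for EGF, 0 to 6 for EGF+AngII, 6 to 17 for EGF+U46619 against EGF and 8 to 19 for U46619 against EGF. At 48 h it gave 3 to 14 for U46619, 6 to 14 for EGF+U46619, 5 to 13 for EGF+U46619 against EGF and 3 to 11 for U46619 against EGF. The other counts stayed at 0 to 0. The cause of these differences was not tested.

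Of the log2-fold changes of single named members under the alternatives, none reversed its direction after a call, 140 were no longer past the threshold, 58 were newly past it and 2028 kept their side. Slc7a11, Cth and Cbs had few counts in some control cultures.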
